A study of Mus musculus with 18 samples.

Results

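Nuclear factor I (NFI) genes and further transcription factors of neural progenitors and their switch to glia were followed through astrocyte differentiation, without and with tumour necrosis factor (TNF). The set was chosen by name and holds 8 of the 54838 genes in the count table: the NFI genes Nfia, Nfib, Nfic and Nfix, and the further factors Zbtb20, Pax6, Emx2 and Lhx2. All 8 were among the 20067 genes with enough counts to be tested. The cells were neural stem cells from the ventricular zone of wild type C57BL/6J mouse embryos at embryonic day 14, grown as neurospheres (NSPs) with 20 ng/ml EGF, and differentiated on coated plates by a change to medium with 10% serum. RNA was sequenced from 18 libraries in 6 conditions with 3 replicates each: proliferating NSPs (NSP, labelled as untreated cells at 0 h), cells differentiated for 24 h or 72 h (24h, 72h), the same times with TNF at 50 ng/ml (24h_TNF, 72h_TNF), and cells differentiated for 1 week without TNF (1week). No 1 week library had TNF, so a difference with TNF can be read at 24 h and 72 h only. The study's methods describe isolation from single brains and, for its data in general, independent biological experiments. The labels do not tie these replicates to separate brains, so the p-values measure the spread between these libraries, which may be technical.

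NFI proteins bind DNA as dimers, with a recognition site made of a TTGGC core and its inverted copy spaced by a short gap. In the developing forebrain, Nfia and Nfib are switched on in progenitors around the onset of gliogenesis, Nfia acts together with Sox9, and NFI factors bind promoters of astrocyte genes such as Gfap. Zbtb20 is a zinc finger repressor that is needed for the hippocampus and promotes astrocyte formation, Pax6 a paired-box factor of dorsal radial glia, Emx2 a homeobox factor that patterns the cortex, and Lhx2 a LIM-homeodomain factor that keeps progenitors neurogenic and delays astrocyte formation in the hippocampus.

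The genes lie on 6 chromosomes of the mouse GRCm38 build. Nfia is at chr4:97772734-98118874 on the plus strand, Nfib at chr4:82290173-82705750 on the minus strand, Nfic at chr10:81396186-81455635 (minus), Nfix at chr8:84699876-84800344 (minus), Zbtb20 at chr16:42875881-43642602 (plus), Pax6 at chr2:105668900-105697364 (plus), Emx2 at chr19:59458372-59465357 (plus) and Lhx2 at chr2:38339281-38369733 (plus). RefSeq promoter windows on GRCm38.p6, from 250 bases before to 50 after a transcript start, were found for 7 of the 8 genes (12 windows, with none for Nfib). The core TTGGC, on either strand, was in 4 of these 12 windows (3 of the 4 Nfix windows and 1 of the 2 Lhx2 windows), against 46.7% of all 32851 windows. No window of the set held the complete site (TTGGC, any 5 bases, GCCAA), which 0.0365% of all windows held, and none held it with 1 mismatch, against 0.907% of all. The bases before the start are shown for Zbtb20, the factor with the largest rise, and for Nfix and Lhx2, the genes with a core. The Zbtb20 and Nfix starts lie within the gene bodies given above, and capitals mark a core.
Zbtb20 (chr16:43247034-43247283, plus strand): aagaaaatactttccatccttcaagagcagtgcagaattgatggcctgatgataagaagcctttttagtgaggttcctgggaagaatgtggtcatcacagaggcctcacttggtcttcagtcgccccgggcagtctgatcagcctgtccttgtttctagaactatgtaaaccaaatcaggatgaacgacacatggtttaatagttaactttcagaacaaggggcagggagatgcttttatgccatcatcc
Nfix (chr8:84772876-84773125, minus strand): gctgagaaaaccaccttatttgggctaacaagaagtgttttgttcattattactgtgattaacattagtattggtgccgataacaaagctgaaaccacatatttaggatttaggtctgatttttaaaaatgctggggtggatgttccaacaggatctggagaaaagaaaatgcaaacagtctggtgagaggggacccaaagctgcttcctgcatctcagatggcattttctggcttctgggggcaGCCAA
Lhx2 (chr2:38339031-38339280, plus strand): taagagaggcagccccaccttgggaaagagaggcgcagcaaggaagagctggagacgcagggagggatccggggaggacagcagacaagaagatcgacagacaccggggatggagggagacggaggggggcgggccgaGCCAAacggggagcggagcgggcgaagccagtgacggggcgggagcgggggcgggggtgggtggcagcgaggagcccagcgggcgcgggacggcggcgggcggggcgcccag
The Zbtb20 stretch held no core, and the Nfix and Lhx2 stretches held 1 each, on the opposite strand (GCCAA). A match is a description of the letters and not of a bound site.

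Levels are given as CPM, counts relative to the library total after scaling with edgeR's TMM factors, and a change is the log2 fold change of edgeR's quasi-likelihood test with its standard error (SE) and a Benjamini-Hochberg adjusted p over all genes tested, called when under 0.05. Total counts ranged from 12509693 to 22549627 per library. Summed markers of microglia and macrophages stayed between 1.15 and 3.95 CPM and those of endothelial cells between 3.02 and 7.61 CPM in all 18 libraries, while the summed 10 astrocyte markers were already at 5848 to 6200 CPM in NSP, reached 6304 to 8805 CPM at 72h and were at 3318 to 3814 CPM in 1week. The sum was higher at 72h through Gfap, with 27.1 CPM on average in NSP and 2432 CPM at 72h. Aqp4 and Gja1 were also higher on average at 72h than in NSP, and Slc4a4 was nearly level. Slc1a3, Slc1a2, Aldoc, S100b, Aldh1l1 and Fgfr3 were lower. In 72h_TNF the astrocyte sum was 4054 to 5420 CPM, below every 72h library. Gfap made up much of this difference, with 489 CPM on average in 72h_TNF against 2432 CPM at 72h. Aqp4, Aldoc, S100b, Gja1 and Fgfr3 were also lower on average with TNF. Slc1a3 and Slc4a4 were close to their 72h levels, and Slc1a2 and Aldh1l1 were higher. Summed oligodendrocyte-lineage markers fell from 1061 to 1367 CPM in NSP to 82.4 to 91.7 CPM at 72h, with 145 to 185 CPM in 72h_TNF, the neural stem cell markers from 5580 to 7642 CPM to 1660 to 2202 CPM. The fibroblast and mural sum, 4.49 to 11.1 CPM in NSP and 403 to 497 CPM at 24h, was nearly all Acta2 (5.83 and 439 CPM on average), a smooth muscle actin, while Col1a1 and Col3a1 stayed under 1 CPM on average there. The summed ependymal markers, mainly Foxj1, were at 21.1 to 35.3 CPM in NSP, 85.0 to 100 CPM at 24h and 236 to 331 CPM at 72h. The neuron sum of 1459 to 2102 CPM in every condition was nearly all Map2, whereas Dcx went from 5.22 CPM in NSP to 0 in 1week and Tubb3 from 19.7 CPM to 34.6 at 24h and 5.06 in 1week. Apart from the microglia, endothelial and neuron sums, these lists moved with the same conditions as the factors below. The part of the lists in the results was not tested. In bulk RNA a change in the number of cells of a type cannot be told apart from a change in RNA per cell.

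**Figure D1:**
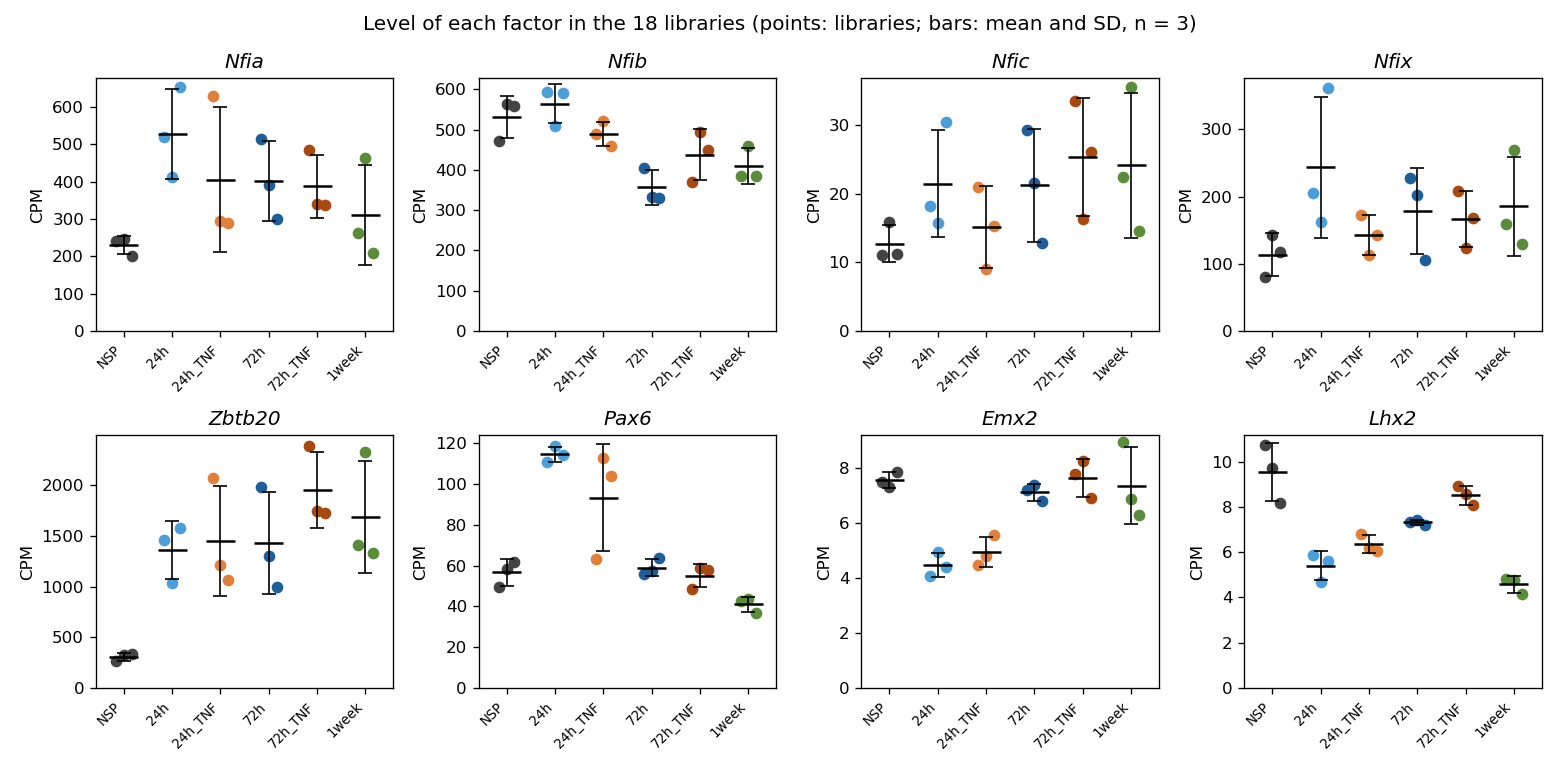
Level of each of the 8 factors (CPM, y axes from 0) in the 18 libraries by condition, with the mean and SD of 3 libraries. Zbtb20 lay at 262 to 340 CPM in NSP and at 997 CPM or more in every other library, and Pax6 was highest at 24h.

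Zbtb20 rose most of the 8 genes and stayed high. Its level was 262, 323 and 340 CPM in the NSP libraries, and 1459, 1034 and 1582 CPM at 24h. At 72h it was 1977, 1304 and 997 CPM, and at 1week 1412, 2324 and 1332 CPM. No differentiated library overlapped NSP, although the replicates of each later condition spread widely. The change from NSP was 2.14 (SE 0.29, adjusted p = 7.52e-06) at 24h on the log2 scale. It was 2.21 (SE 0.29, adjusted p = 3.42e-06) at 72h and 2.46 (SE 0.29, adjusted p = 9.23e-07) after 1 week, so that the rise was 4.41- to 5.48-fold. From 24h to 72h Zbtb20 differed by 0.07 (95% interval -0.51 to 0.65, adjusted p = 0.885), and from 72h to 1week by 0.25 (-0.33 to 0.82, adjusted p = 0.713). No further step was called after 24h. Per kilobase of exon, its mean level rose from 10.0 CPM in NSP to 44.2 CPM at 24h. The antisense transcript Gm9968, which shares 104 exon bases with Zbtb20, had 1.72% of its counts and was called higher at 24h as well (2.93, SE 0.29, adjusted p = 1.82e-07), as were the other 7 tested genes that lie within Zbtb20, which share no exon bases with it.

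Nfia rose early. Its level was 241, 246 and 202 CPM in NSP and 519, 411 and 652 CPM at 24h, with every 24h library above every NSP library. The change was 1.20 (SE 0.31, adjusted p = 0.00329, edgeR). At 72h the libraries had 513, 390 and 300 CPM, still all above NSP (0.80, SE 0.31, adjusted p = 0.0323), but this call was lost in 5 of the 18 fits that each left out 1 library (any of the NSP libraries, or 72h replicate 1 or 2), with an adjusted p of up to 0.153. At 1week the levels of 262, 463 and 208 CPM overlapped NSP, and the difference of 0.44 (SE 0.30) was not called (adjusted p = 0.227). It was 0.04 without 1week replicate 2, the highest library, and 0.66 without 1week replicate 3, again with no call. Without a filter on low counts, edgeR did call the 1week difference (0.44, SE 0.15, adjusted p = 0.0123). The overlapping, oppositely oriented E130114P18Rik had 11.9% of the count of Nfia, and moved otherwise: it was not called at 24h (adjusted p = 0.146) and fell at 1week by 0.58 from NSP (adjusted p = 0.00713).

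Nfix also rose at 24h, but its replicates spread widely. It had 79.9, 143 and 118 CPM in NSP and 206, 163 and 362 CPM at 24h, without overlap (1.10, SE 0.33, adjusted p = 0.01). Without 24h replicate 3, the highest library, the change was 0.69 and not called (adjusted p = 0.109), and without NSP replicate 1 it was 0.89 (adjusted p = 0.0519). At 72h Nfix had 227, 203 and 106 CPM and at 1week 159, 269 and 130 CPM. Both ranges overlapped NSP, with differences of 0.65 (adjusted p = 0.103) and 0.71 (adjusted p = 0.073). Without a filter on low counts, edgeR called both differences (SE 0.15, adjusted p = 0.000334 and 2.5e-05). Both differences depended on single libraries. At 72h the difference was 0.92 and called without 72h replicate 3 (adjusted p = 0.027), whose count column carries another number than its label, and 0.44 without replicate 1 of 72h or of NSP. At 1week it was 0.91 and called without 1week replicate 3 (adjusted p = 0.0365), and 0.34 without 1week replicate 2. The oppositely oriented Lyl1 and G430095P16Rik, which share 4 and 137 exon bases with Nfix, were also called higher at 24h, by 1.92 (SE 0.45, adjusted p = 0.00173) and 1.13 (SE 0.39, adjusted p = 0.0223), at mean levels of 4.11 and 2.84 CPM. Their counts were 1.76% and 1.18% of those of Nfix.

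Nfib, the NFI gene with the highest level in NSP, did not rise. Its level was 471, 565 and 558 CPM in NSP and 594, 510 and 590 CPM at 24h, a difference of 0.09 with a 95% interval from -0.19 to 0.37 (adjusted p = 0.596). By 72h it had fallen to 406, 333 and 331 CPM, below every NSP and every 24h library. The change was -0.66 from 24h (SE 0.13, adjusted p = 0.0012) and -0.58 from NSP (SE 0.13, adjusted p = 0.00127). At 1week it was at 385, 460 and 384 CPM, -0.38 from NSP (adjusted p = 0.0219), a call lost in 4 of the 18 leave-one-out fits (adjusted p up to 0.0794).

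Nfic was the least abundant NFI gene, with 11.04, 15.9 and 11.3 CPM in NSP. The 24h libraries had 18.2, 15.8 and 30.5 CPM, the 72h libraries 29.3, 21.5 and 12.9 CPM and the 1week libraries 22.4, 35.5 and 14.7 CPM. Every one of these ranges overlapped NSP. The difference was 0.75 (SE 0.37, adjusted p = 0.0962) at 24h, 0.73 (SE 0.37, adjusted p = 0.101) at 72h and 0.93 (SE 0.37, adjusted p = 0.0374) at 1week. Without 24h replicate 3 the difference at 24h was 0.41, and at 72h it was 0.43 without 72h replicate 1 and 0.99, then called, without 72h replicate 3 (adjusted p = 0.0362). Fitted on the compared groups alone, both times were called (adjusted p = 0.0312 and 0.0449). Both were also called without a filter on low counts (adjusted p = 0.00177 and 0.00158, edgeR). The call at 1week was lost in 4 of 18 leave-one-out fits (NSP replicate 1 or 3, 1week replicate 1 or 2), and without 1week replicate 2, the highest library, the change was 0.55 (adjusted p = 0.243).

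The NFI genes can be compared with each other only per length of exon. On this scale they summed to 74.0 ± 8.05 CPM per kb (SD, n = 3) in NSP and 122.6 ± 28.7 CPM per kb at 24h, and then 88.2 ± 21.8 at 72h and 84.9 ± 26.8 at 1week. In NSP, Nfib held 48.1% of the sum, Nfia 28.7%, Nfix 20.7% and Nfic 2.58%. At 24h, Nfia held 39.5% and Nfib 31.6%. The share of Nfib lay between 45.9% and 50.7% in NSP and between 25.8% and 35.4% at 24h. The share of Nfib was thus lower in all 3 libraries of 24h, while its own level was not called as different. At 1week, Nfia held 32.9%, Nfib 33.6% and Nfix 29.3%.

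**Figure D2:**
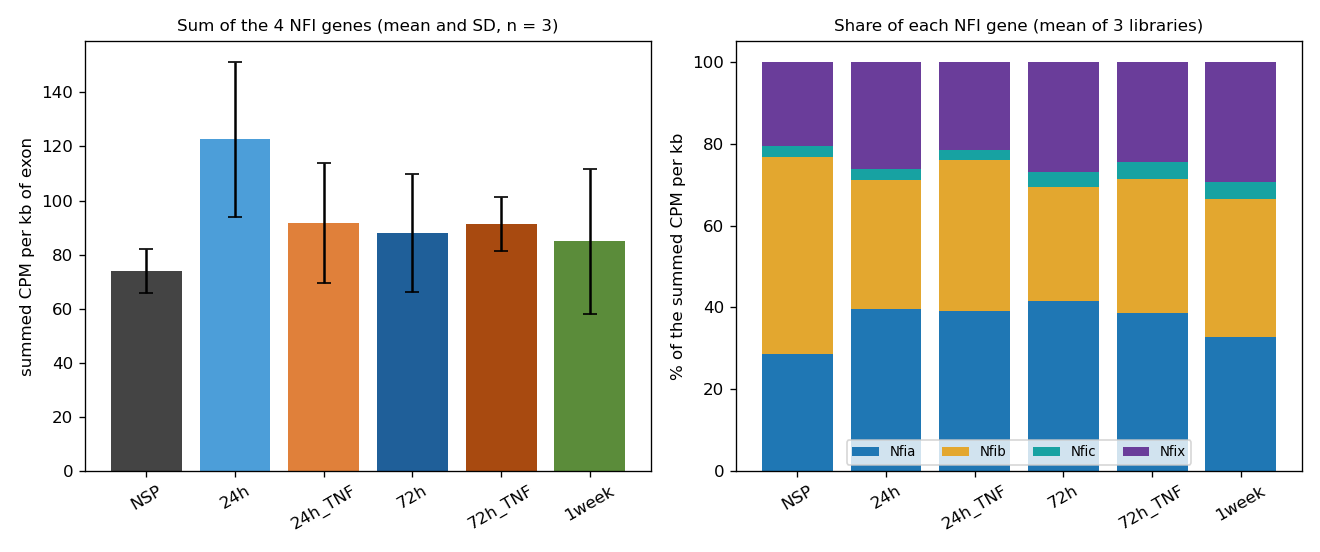
Left, sum of the 4 NFI genes in CPM per kb of exon by condition (mean and SD of 3 libraries); right, the mean share of each NFI gene in that sum (%). Nfib held 48.1% of the sum in NSP and 31.6% at 24h, and Nfia 28.7% and 39.5%.

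Pax6 passed through a peak. It had 49.5, 58.5 and 62.0 CPM in NSP, 111, 118 and 114 CPM at 24h, 55.8, 57.3 and 63.6 CPM at 72h, and 42.4, 43.8 and 37.0 CPM at 1week. The 24h libraries lay above all others without TNF, and the 1week libraries below all. The change was 1.01 (SE 0.16, adjusted p = 5.61e-05) from NSP to 24h and -0.96 (SE 0.16, adjusted p = 0.000286) from 24h to 72h, while 72h differed from NSP by 0.06 (95% interval -0.29 to 0.40, adjusted p = 0.788). At 1week Pax6 was below NSP (-0.46, SE 0.16, adjusted p = 0.0212), a call that was lost in 3 of the 18 leave-one-out fits (adjusted p up to 0.0846). The step from 72h to 1week of -0.52 was not called (adjusted p = 0.0674), although the ranges did not overlap. DESeq2 did call it (adjusted p = 0.0449). So did edgeR without a filter on low counts (adjusted p = 0.0402), on the compared groups alone (adjusted p = 0.0131) and in 1 of the 18 leave-one-out fits.

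Emx2 ran opposite to Pax6 at 24h. Its level fell from 7.49, 7.30 and 7.85 CPM in NSP to 4.08, 4.92 and 4.40 CPM at 24h, and was back at 7.19, 7.36 and 6.77 CPM at 72h and 8.92, 6.85 and 6.27 CPM at 1week. The 24h libraries lay below all others without TNF. The fall was -0.75 (SE 0.18, adjusted p = 0.00163) and the return from 24h to 72h 0.67 (SE 0.18, adjusted p = 0.00939, but 0.0603 without a filter on low counts), and at 72h and 1week Emx2 differed from NSP by -0.09 (95% interval -0.45 to 0.27, adjusted p = 0.686) and -0.03 (-0.39 to 0.32, adjusted p = 0.878). These values rest on 54 to 202 counts per library. Emx2os, an antisense gene that starts 263 bases from Emx2 and shares 264 exon bases with it, had 170% of its counts. It had 6.86 ± 0.52 CPM in NSP, 8.10 ± 1.25 at 24h, 14.5 ± 3.14 at 72h and 12.1 ± 1.55 at 1week (SD, n = 3), so it was not called at 24h (adjusted p = 0.372) when Emx2 fell, and rose at 72h by 1.07 (SE 0.21, adjusted p = 0.000267) when Emx2 was at its NSP level. The libraries were strand-specific, but the strand setting of the counting is not given in the sources used here, so a part of the shared bases may be counted for either gene.

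Lhx2 fell with differentiation, and unlike Emx2 it was below NSP in 1week. It had 10.7, 9.72 and 8.19 CPM in NSP, 5.90, 4.70 and 5.62 CPM at 24h, 7.34, 7.42 and 7.21 CPM at 72h, and 4.81, 4.77 and 4.16 CPM at 1week. All differentiated libraries without TNF lay below all NSP libraries. The change from NSP was -0.82 (SE 0.16, adjusted p = 0.000364) at 24h and -1.05 (SE 0.16, adjusted p = 1.92e-05) at 1week. At 72h it was -0.38 (SE 0.16, adjusted p = 0.0476), and this call held in only 2 of the 18 leave-one-out fits. From 24h to 72h the difference was 0.44 (SE 0.16, adjusted p = 0.0548), without overlap and in the direction of Emx2. It was not called, but DESeq2 (adjusted p = 0.0487) and edgeR with at least 10 counts in every library (adjusted p = 0.047) did call it. With TNF the same step was 0.42 (SE 0.16, adjusted p = 0.0904), also without overlap. The fall from 72h to 1week was -0.67 (SE 0.16, adjusted p = 0.0158). This fall was not called without 72h replicate 2 (adjusted p = 0.0671) or 1week replicate 3 (adjusted p = 0.0809), nor without a filter on low counts (adjusted p = 0.14). Lhx2 had 59 to 177 counts per library.

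Counted over the set, 6 of 8 genes were called at 24h against NSP, while 52.7% of all tested genes were. The 6 comprised 4 that rose (27.2% of all genes rose) and 2 that fell (25.5% of all genes). At 72h 4 of 8 were called, against 55.3% of all genes, of which 2 rose (28.1% of all) and 2 fell (27.2% of all). In 1week 5 of 8 were called, against 58.6%, of which 2 rose (29.6% of all) and 3 fell (29.1% of all). Most of the genes tested were called in these comparisons with NSP, and the counts are to be read against that. From 24h to 72h 3 of 8 were called, against 24.8% of all genes: Nfib and Pax6 fell (12.6% of all) and Emx2 rose (12.2% of all). From 72h to 1week 1 of 8 was called, against 6.63%, and this was Lhx2, which fell (3.96% of all). The comparisons with NSP share its libraries, so their counts are not independent.

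**Figure D3:**
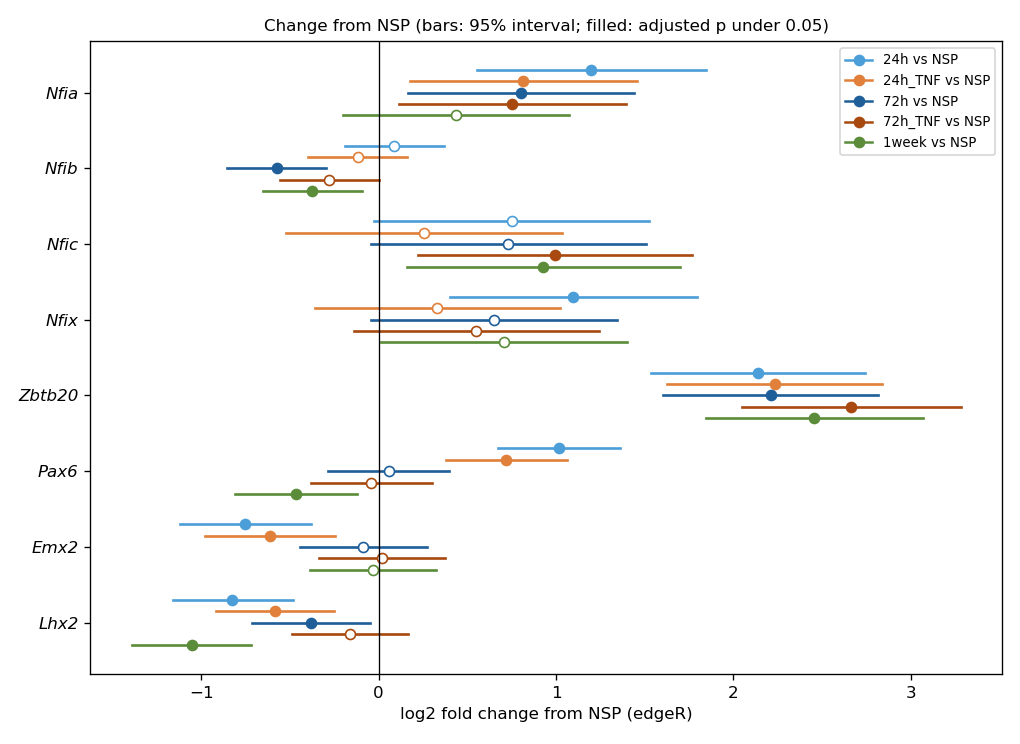
Log2 fold change of each factor from NSP (x axis) with its 95% interval, for the 5 differentiated conditions; filled points are called (adjusted p under 0.05). Zbtb20 was called higher in all 5 conditions, Pax6 higher at 24 h alone, and Emx2 lower at 24 h alone, each without and with TNF.

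The early changes of Zbtb20, Pax6, Emx2 and Lhx2 were also present with TNF. Zbtb20 had 2068, 1210 and 1063 CPM in 24h_TNF and 2384, 1744 and 1729 CPM in 72h_TNF, changes from NSP of 2.23 (SE 0.29, adjusted p = 4.6e-06) and 2.66 (SE 0.29, adjusted p = 4.26e-07). Pax6 had 63.2, 113 and 104 CPM in 24h_TNF, all above NSP (0.72, SE 0.16, adjusted p = 0.00122), and 48.7, 58.7 and 57.8 CPM in 72h_TNF. The peak of Pax6 was therefore seen with TNF too, with 1 library of 24h_TNF close to NSP. Emx2 fell to 4.47, 4.77 and 5.54 CPM in 24h_TNF (-0.61, SE 0.17, adjusted p = 0.00632) and was at 7.78, 8.24 and 6.88 CPM in 72h_TNF. Lhx2 fell to 6.80, 6.19 and 6.07 CPM in 24h_TNF (-0.59, SE 0.16, adjusted p = 0.0047), and the 8.90, 8.59 and 8.07 CPM of 72h_TNF overlapped NSP (-0.16, adjusted p = 0.377). In all, 5 of 8 genes were called in 24h_TNF against NSP (54.5% of all genes), 3 of them higher (28.2% of all) and 2 lower (26.3% of all). In 72h_TNF 3 of 8 were called (61.9% of all genes), all higher (31.7% of all). From 24h_TNF to 72h_TNF 2 of 8 were called (13.3% of all genes). Pax6 changed by -0.76 (SE 0.16, adjusted p = 0.00469, 7.93% of all genes fell) and Emx2 by 0.63 (SE 0.17, adjusted p = 0.0218, 5.38% of all genes rose). The Pax6 call was lost without 24h_TNF replicate 2 (adjusted p = 0.0547), and the Emx2 call without that library (adjusted p = 0.0713) or 72h_TNF replicate 2 (adjusted p = 0.0781). Fitted on these 2 conditions alone, neither was called (adjusted p = 0.0845 for Pax6 and 0.0909 for Emx2).

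Of the NFI genes, Nfia was called against NSP at both times with TNF and Nfic at 72 h. Nfia had 629 CPM in 24h_TNF replicate 1 but 295 and 289 CPM in the others, and its call against NSP (0.82, SE 0.31, adjusted p = 0.0307) fell to 0.32 without replicate 1 (adjusted p = 0.363). In 72h_TNF it had 485, 341 and 337 CPM, all above NSP (0.75, SE 0.31, adjusted p = 0.0391), with a change of 0.60 to 0.84 over the leave-one-out fits and no call without replicate 1 (adjusted p = 0.135). Both calls were also lost without any 1 of the NSP libraries, with an adjusted p of up to 0.117. Nfic had 20.98, 9.10 and 15.3 CPM in 24h_TNF and 33.6, 16.4 and 26.1 CPM in 72h_TNF, where it lay above NSP (0.99, SE 0.37, adjusted p = 0.0259). This call was lost in 4 of 18 leave-one-out fits (NSP replicate 1 or 3, 72h_TNF replicate 1 or 3), with an adjusted p of up to 0.111, while the change stayed between 0.77 and 1.23. Nfix had 173, 114 and 143 CPM and then 208, 124 and 168 CPM, overlapping NSP at both times (adjusted p = 0.408 and 0.154). Without a filter on low counts, edgeR called Nfix in 72h_TNF (adjusted p = 0.00214). Nfib had 488, 520 and 459 CPM in 24h_TNF and 371, 494 and 449 CPM in 72h_TNF, with no call against NSP in edgeR's test (adjusted p = 0.464 and 0.0773). DESeq2 called it in 72h_TNF (adjusted p = 0.0422), as did edgeR without NSP replicate 1 (adjusted p = 0.0321) or 72h_TNF replicate 2 (adjusted p = 0.0372). With replicate 1 of both TNF conditions left out together, 4 of 8 genes were called in 24h_TNF (48.1% of all tested genes in that fit) and 1 of 8, Zbtb20, in 72h_TNF (58.2% of all).

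Set directly against untreated cells of the same time, no factor was called in edgeR's test with its filter at 24 h (0 of 8, against 3.5% of all genes) or at 72 h (0 of 8, against 9.56%). At an unadjusted p under 0.05 there was 1 gene at each time, and DESeq2 called 0 at both. At 24 h this was Nfix, with a difference of -0.77 (95% interval -1.46 to -0.07, unadjusted p = 0.032, adjusted p = 0.291, edgeR). At 72 h it was Nfib, with 0.30 (0.02 to 0.58, unadjusted p = 0.0386, adjusted p = 0.173, edgeR), where 72h_TNF and 72h libraries overlapped. For Nfia the interval of the TNF difference ran from -1.02 to 0.25 at 24 h and from -0.68 to 0.59 at 72 h, and for Zbtb20 from -0.49 to 0.67 and from -0.13 to 1.03. A change of up to these bounds cannot be told from none here. The intervals were narrower for Emx2 (-0.24 to 0.52 at 24 h, -0.25 to 0.46 at 72 h) and Pax6 at 72 h (-0.44 to 0.24). Lhx2 was higher in all 3 TNF libraries than in all 3 untreated ones at both times, with differences of 0.24 (SE 0.16, adjusted p = 0.599) and 0.22 (SE 0.16, adjusted p = 0.414) that were not called. The difference between the TNF effects at 72 h and 24 h was called for 0 of 8 genes in edgeR's test (0.458% of all genes) and 0 by DESeq2, with 1 gene at an unadjusted p under 0.05. This was Nfib, at 0.50 (SE 0.19, unadjusted p = 0.0153, adjusted p = 0.348, edgeR).

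**Figure D4:**
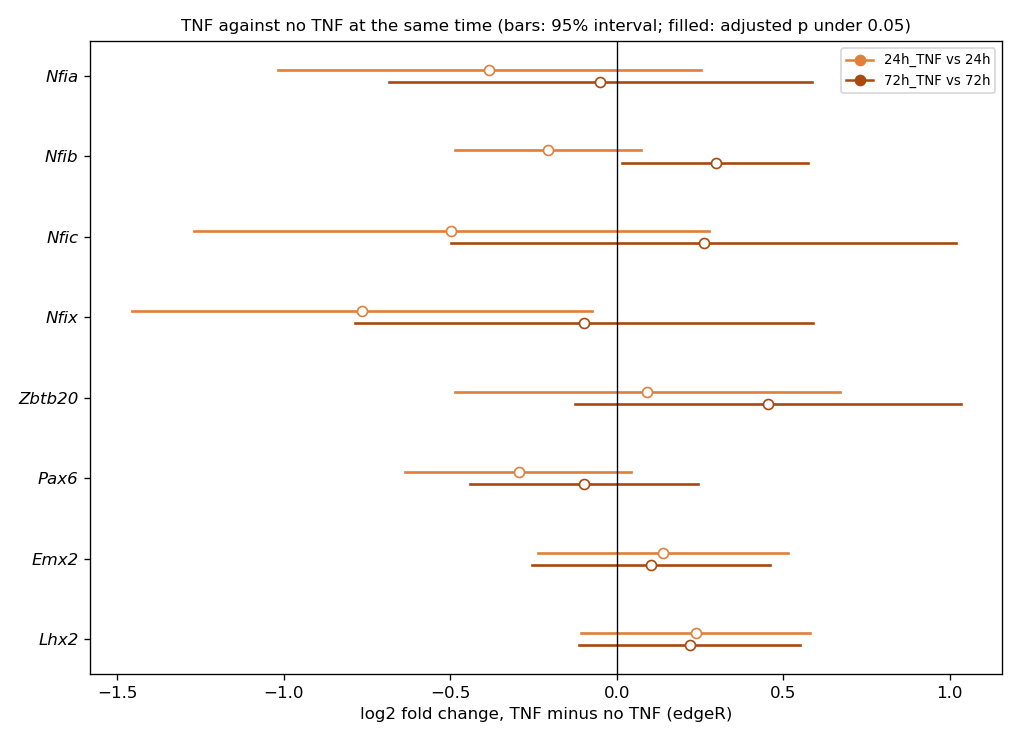
Log2 difference of each factor between TNF-treated and untreated cells (x axis) at 24 h and 72 h, with its 95% interval; an open point is not called. All 16 points are open, and the intervals of Nfia, Nfic and Nfix are the widest.

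After the values were seen, Nfia, Nfic, Nfix and Zbtb20 were found to vary together between replicates of a condition. In all 6 conditions the library with the highest Nfia level also had the highest Nfic and Nfix level, and in 5 of 6 the highest Zbtb20 level. These were NSP replicate 2 (Zbtb20 was highest in replicate 3), 24h replicate 3, replicate 1 of 24h_TNF, 72h and 72h_TNF, and 1week replicate 2. Nfib shared the highest library in 3 of 6 conditions, Lhx2 in 2, Pax6 in 1 and Emx2 in 0. The same library had the highest share of mitochondrial counts of its condition in all 6 conditions. That share was 6.24% in 24h_TNF replicate 1 against 3.48% and 2.65% in its partners, and 8.01% in 72h_TNF replicate 1 against 3.67% and 2.43%. At 24h it was 4.09%, 2.87% and 5.02%, highest in replicate 3. It ran from 3% to 3.4% in NSP, from 3.2% to 3.45% at 72h and from 1.6% to 2.09% in 1week. The same library had the highest share of counts in antisense genes in 4 of 6 conditions and the lowest share in ribosomal protein genes in 3 of 6. The ribosomal protein share was 2.52% to 2.63% in NSP and 0.898% to 1.47% in the differentiated libraries. The part of these shares in the results was not tested. RNA quality numbers, given by the submitters as 3.4 to 10 over all samples and not per library, cannot be set beside these values, and the part of RNA quality was not tested. Pax6 showed the reverse in 24h_TNF, 72h and 72h_TNF, where replicate 1 was the lowest library, with 63.2, 55.8 and 48.7 CPM.

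**Figure D5:**
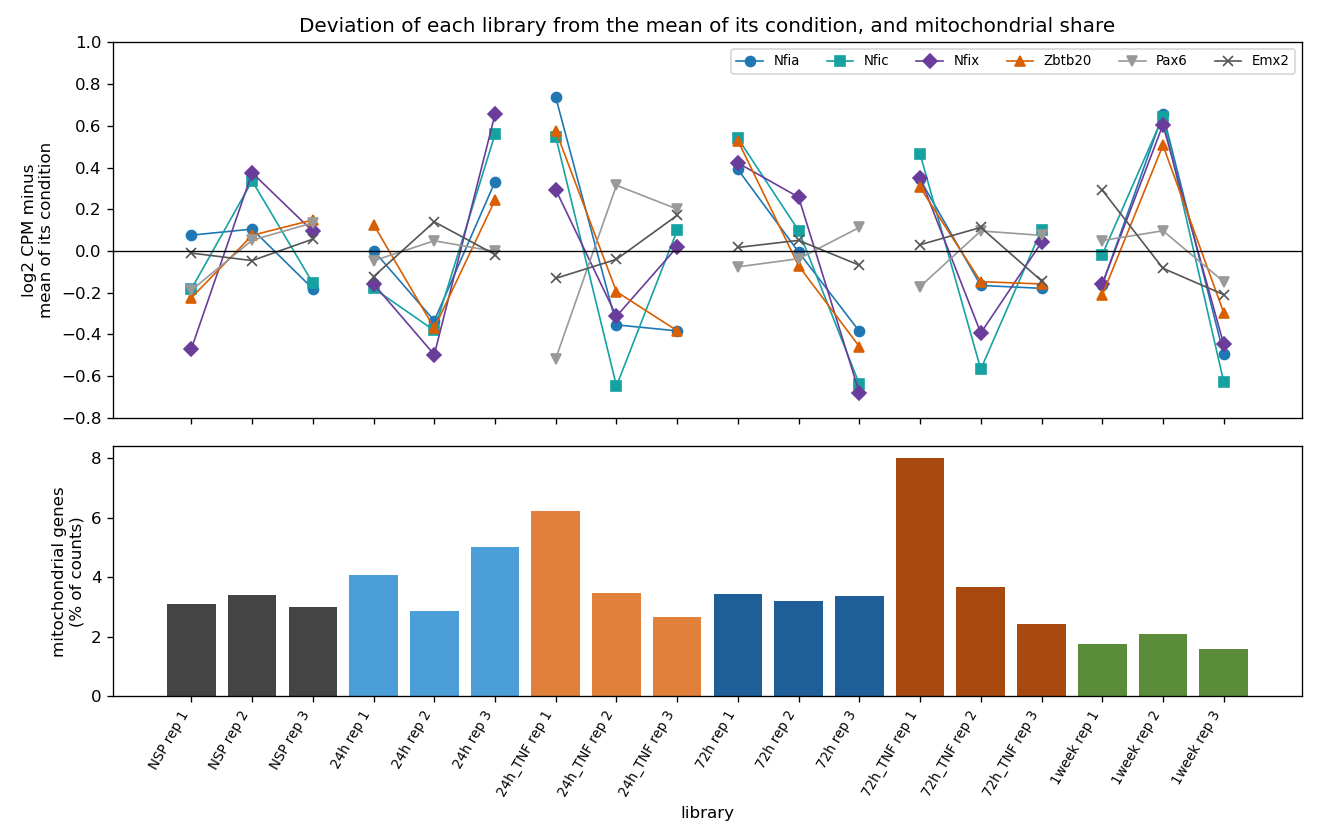
Top, log2 CPM of 6 factors in each library minus the mean of its condition; bottom, share of counts from mitochondrial genes (%). Nfia, Nfic and Nfix peak in the same library in 6 of 6 conditions, which is also the one with the highest mitochondrial share, and Pax6 and Emx2 do not follow them.

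Over the 18 libraries, which share conditions and depth, the gene most like each factor in its log2 CPM was Eif4ebp2 for Nfia (Pearson r = 0.95), Tcf4 for Nfib (0.91), Camta2 for Nfic (0.94), Tnrc18 for Nfix (0.96), Fyco1 for Zbtb20 (0.98), Epha5 for Pax6 (0.97), Zfyve21 for Emx2 (0.87) and Fut11 for Lhx2 (0.90). In the order of the condition means, neighbouring conditions did not overlap for Zbtb20 between 24h and NSP, for Pax6 between 72h_TNF and 1week, for Emx2 between 72h and 24h_TNF, and for Lhx2 between 72h_TNF, 72h, 24h_TNF and 24h, while all other neighbours overlapped. Within the set the closest pair was Nfic and Nfix (r = 0.86), followed by Nfia and Nfix (0.78). Pax6 and Emx2 were the most opposed pair (-0.77). These are descriptions of 18 points from 6 conditions.

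Genes linked to NFI factors in astrocyte formation moved in both directions early and mostly fell later. Of the 16 listed, 3 rose and 7 fell by 24h in edgeR's test against NSP (27.2% and 25.5% of all tested genes). By 72h, 2 stood above NSP and 9 below (28.1% and 27.2% of all), and in 1week 13 stood below and 0 above (29.1% and 29.6% of all). Their median log2 change was -0.33, -0.65 and -2.40 at these times, beside 0.06, 0.05 and 0.06 over all genes tested. Gfap, the intermediate filament of astrocytes, rose from 27.1 ± 13.7 CPM in NSP to 899 ± 44.6 at 24h and 2432 ± 673 at 72h (SD, n = 3), and was at 63.4 ± 15.9 at 1week, when Zbtb20 was still high. Aqp4, the astrocyte water channel, rose by 1.41 (SE 0.39) at 24h and 2.46 (SE 0.40) at 72h, and Aldh1l1, a folate enzyme of astrocytes, by 0.86 (SE 0.29) at 24h. Aldh1l1 then fell from 24h to 72h by 1.52 (adjusted p = 0.000956), with 12.9 CPM in NSP, 23.4 at 24h, 8.14 at 72h and 3.58 in 1week on average. The astrocyte markers S100b and Aldoc were lower on average at 24h than in NSP, S100b with 66.8 against 117 CPM and Aldoc with 891 against 1181 CPM. Fabp7, the fatty acid binding protein of radial glia, fell from 2374 ± 406 CPM in NSP to 1186 ± 163 at 24h and 344 ± 93.0 at 72h, and further to 209 ± 18.04 in 1week (SD, n = 3). The Notch effector Hes1 and the Polycomb methyltransferase Ezh2, which Nfi factors are known to repress, fell by 1.63 and 1.14 on the log2 scale at 24h and by 2.45 and 2.09 at 72h. Mmd2 and Apcdd1, which Nfia with Sox9 is known to activate, also fell, Mmd2 by 1.49 (SE 0.33) and Apcdd1 by 1.14 (SE 0.31) at 24h and by 2.71 and 3.58 at 72h. The glutamate transporter Slc1a3 was not called at 24h (-0.16, adjusted p = 0.441) and fell by 0.47 at 72h (adjusted p = 0.0233).

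Against untreated cells, TNF lowered 2 and raised 0 of these 16 genes at 24 h, and lowered 6 and raised 1 at 72 h (of all tested genes, 3.5% and 9.56% were called in either direction), with median differences of -0.24 and -0.47 beside -0.01 over all genes at both times. At 72 h only 4 were called in either direction with the compared groups alone. At 24 h 4 were called without a filter on low counts, and 4 with replicate 1 of both TNF conditions left out. At 72 h Gfap had 489 ± 461 CPM with TNF (SD, n = 3) against 2432 ± 673 without (-2.31, SE 0.56, adjusted p = 0.0128, edgeR). The libraries with TNF ran from 217 to 1022 CPM and those without from 1855 to 3172 CPM, so the size of the difference depends on single libraries. The calcium-binding protein S100b differed by -1.64 (SE 0.19, adjusted p = 1.66e-05), the glycolytic enzyme Aldoc by -1.57 (SE 0.18, adjusted p = 1.31e-05) and Hes1 by -1.44 (SE 0.35, adjusted p = 0.0115), while the chromatin protein Hmga2 was higher by 2.80 (SE 0.49, adjusted p = 0.000889). The TNF difference was called as larger at 72 h than at 24 h for S100b (-1.32, SE 0.26, adjusted p = 0.0309 in the interaction of TNF and time), and was not called as different for Gfap (-2.43, SE 0.77, adjusted p = 0.232). S100b was the only 1 of the 16 called in this interaction. With the compared groups alone, and with a block for the replicate number, 0 of the 16 were called. DESeq2 called 3, and edgeR without a filter on low counts called 9. No NFI gene was called against untreated cells at 24 h or 72 h in edgeR's test with its filter. Without a filter on low counts, edgeR called Nfix at 24 h (-0.76, SE 0.15, adjusted p = 6.21e-05).

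Of 23 other gliogenic regulators, 10 rose and 6 fell by 24h, when 27.2% of all tested genes rose and 25.5% fell. By 72h, 7 stood above NSP and 8 below (28.1% and 27.2% of all), and in 1week 7 above and 10 below (29.6% and 29.1% of all), with median changes of 0.38, 0.15 and -0.35. Among those that rose at 24h were the inhibitors of differentiation Id1 (2.92, SE 0.29), Id3 (1.602, SE 0.27) and Id4 (2.47, SE 0.27) and the Runt factor Runx2 (1.93, SE 0.30). Sox9, the partner of Nfia, had 67.5 ± 16.97 CPM in NSP, 118 ± 36.2 at 24h and 180 ± 38.6 at 72h (SD, n = 3), which was not called at 24h (0.81, adjusted p = 0.0607) and rose by 1.41 at 72h (adjusted p = 0.00237). The Notch effector Hes5 (-3.23, SE 0.50) and the growth factor-responsive Etv4 (-2.73, SE 0.26) and Etv5 (-1.80, SE 0.25) fell at 24h. With TNF at 72 h, 3 of the 23 were higher and 3 lower than without, where 9.56% of all tested genes were called: Etv4 (2.40), Etv5 (1.92) and Gli3 (0.87) were higher, and Hes1 (-1.44), Id4 (-1.34) and Hey1 (-1.11) lower. At 24 h only Sox8 of the 23 was called (3.5% of all tested genes were), with a difference of -1.003 (SE 0.21, adjusted p = 0.00922). DESeq2 called 2 of the 23 there, edgeR on the compared groups alone 3, and edgeR without a filter on low counts 6.

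Of 14 tested progenitor and neurogenic factors, 8 fell by 24h (25.5% of all tested genes), 11 by 72h (27.2%) and 12 by 1week (29.1%), and 0 rose (27.2%, 28.1% and 29.6% of all), with median changes of -0.74, -2.01 and -2.16. The maintenance methyltransferase Dnmt1 (-2.07, SE 0.20) and the SoxC factor Sox11 (-1.92, SE 0.17) fell at 24h, whereas the POU factor Pou3f2 (-0.10, adjusted p = 0.587) was not called. Of 10 tested dorsal telencephalic patterning factors beside Pax6, Emx2 and Lhx2, 3 rose and 2 fell by 24h (27.2% and 25.5% of all tested genes), and 5 stood above NSP and 2 below by 72h (28.1% and 27.2%). Those that rose at 24h were Otx1 (0.89, SE 0.32, adjusted p = 0.0244), Lmx1a (0.137 CPM in NSP and 5.68 at 24h on average, adjusted p = 3.58e-06) and Gli3. Dmrta2, a dorsal progenitor factor, fell at 24h (-0.78, SE 0.30, adjusted p = 0.0366). Gli3, the zinc finger of Hedgehog signalling, rose at 24h (0.74, SE 0.19, adjusted p = 0.00311) and was below NSP at 72h (-0.64, SE 0.19, adjusted p = 0.00817). Only 3 of 13 ventral factors had enough counts to be tested, and 2 of them fell by 24h (25.5% of all tested genes), among them Olig2 with 415 CPM in NSP and 88.6 CPM at 24h (-2.23, SE 0.19, adjusted p = 4.02e-08), and all 3 by 72h.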

How the data were processed

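Strand-specific libraries were made from RNA depleted of ribosomal RNA, and the authors deposited raw counts per gene. Per the labels, FastQC, Trim Galore, STAR, SAMtools and featureCounts were used on mm10. Their versions and the strand setting are not given in the sources used here. Of 54838 identifiers, 54723 matched GENCODE M21, the source of names and positions. All 18 columns were used; that of 72h replicate 3 carries another replicate number than its label and was matched by time, treatment and index.

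Groups came from the labels. edgeR 4.0.16 (limma 3.58.1, R 4.3.3) was fitted to the counts of all 18 libraries, with TMM factors, its filter by condition, 1 mean per condition, quasi-likelihood tests of 10 comparisons and of the interaction of TNF and time, and Benjamini-Hochberg adjustment over 20067 genes (threshold 0.05). log2 CPM used a prior count of 2. Total counts of 12509693 to 22549627 limit precision, and cover counting error only. Replicates differed by more than sampling noise in every pair, with 4.08 to 62.7 as the chi-square divided by its degrees of freedom. Alternatives were DESeq2 1.42.0, other scaling and filters, the compared groups alone, a replicate block and leaving out libraries. Same-numbered libraries deviated together in every pair (r from 0.26 to 0.29) for 72h_TNF against 24h_TNF only. The scripts were tested on simulated data. Figures used Python 3.11.15 and matplotlib 3.10.9.

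The 8 genes and the gene lists were chosen with earlier results of these data known, so the lists give no independent support. All 8 genes were named in every comparison. From each list, up to 4 called genes per direction with the largest fold change and a mean of at least 1 CPM could be named, with Gfap, Slc1a3, Fabp7, Hes1, Ezh2, Sox9 and Pou3f2. A further gene of this rule is not reported here. Overlapping genes were named as limits, and the most similar genes by Pearson's r of log2 CPM.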

Additional observations from a re-analysis of the deposited data

How the results depend on the processing

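No change of a factor reversed direction where it was called. Of the 88 changes (8 genes in 10 comparisons and the interaction), 85 kept their side of the threshold with DESeq2, 88 with RLE scaling, 72 without a filter, 87 with at least 5 counts in total, 83 with at least 10 counts in every library and 81 when only the compared groups were fitted. Of 1584 values with 1 library left out, 1524 did.

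The count of factors called moved by over 1.5 times in these cases. For 1week against NSP it was 3, not 5, with at least 10 counts in every library. From 72h to 1week, where 1 was called, 2 were called with DESeq2 and with the compared groups alone. From 24h_TNF to 72h_TNF 0 were called, not 2, with the compared groups alone. TNF against no TNF gave 1 instead of 0 without a filter, Nfix at 24 h (adjusted p = 6.21e-05) and Zbtb20 at 72 h (adjusted p = 0.0238), with SEs of 0.15 beside 0.33 and 0.28. With 24h_TNF replicate 1 and 72h_TNF replicate 1 left out, an alternative chosen after seeing the data, the count was 1 (not 3) for 72h_TNF against NSP, 2 for 72h to 1week and 1 for 24h_TNF to 72h_TNF. The cause was not tested.

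With 1 library left out, the count ran from 2 to 5 for 72h and for 1week against NSP, from 1 to 4 for 72h_TNF against NSP, from 0 to 2 for 72h to 1week and from 0 to 2 for 24h_TNF to 72h_TNF. The share of all genes called moved too. It fell as low as 1.74% (from 3.5%) for TNF at 24 h, without 24h replicate 2, and 4.67% (from 9.56%) for TNF at 72 h, without 72h replicate 2. It fell as low as 2.95% (from 6.63%) for 72h to 1week, without 72h replicate 2, and 5.97% (from 13.3%) for 24h_TNF to 72h_TNF, without 24h_TNF replicate 2. Without a filter, 28.9% to 34.6% of all genes were called against NSP (52.7% to 61.9% with it). With at least 5 counts in total the share was 35% for 24h against NSP. For 24h to 72h it fell from 24.8% to 14.2% without a filter and to 15.5% with at least 5 counts in total. For 72h to 1week it rose from 6.63% to 11.1% with the compared groups alone, and to 10.5% with replicate 1 of both TNF conditions left out. The share of the interaction, 0.458%, ran from 0.121% to 0.737% with 1 library left out and was 1.18% with DESeq2 and 1.47% without a filter. Of 495 counts of called genes in the 5 lists under the alternatives, 70 differed from the count given by over 1.5 times. Among the 70 were counts of the NFI-linked genes for TNF against no TNF at 24 h and 72 h and for the interaction. Others were counts of the other gliogenic regulators for TNF at 24 h, and of the progenitor, dorsal and ventral lists in several comparisons.

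Same-numbered libraries deviated together for 24h_TNF and 72h_TNF, where the replicate block left both calls in place. For the other comparisons the libraries share only a number. There the block changed 2 of 88 changes: Lhx2 at 72h was not called (adjusted p = 0.0539), and Pax6 from 72h to 1week was (adjusted p = 0.0485), which made 2 calls in that step. With 72h replicate 3, whose column carries another number, set apart in the block, 0 were called there. Emx2, Lhx2 and Nfic had the fewest counts, 54 to 648 per library, but the SEs of Emx2 and Lhx2 against NSP (0.16 to 0.18) were below those of Nfia (0.30 to 0.31).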
